A study of Drosophila melanogaster with 3 samples.

Results

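Embryonic cells of the fruit fly Drosophila melanogaster carrying transcripts of twist (twi) and of the FGF receptor gene heartless (htl) were followed in the 2 sexed libraries of the series. A cell was taken when its twi and htl counts of unique molecular identifiers (UMIs, each standing for 1 captured RNA molecule) summed to at least 3, with at least 1 from twi. It also needed 1000 UMIs and 500 detected genes. Cells with UMIs for more than 2 of the germ genes vas, nos, pgc, zpg, aub, CG17650 and CG14545 were left out. So were cells with 3 or more summed UMIs of lmd, sns and sing, genes of fusion-competent myoblasts, and cells with 2 or more of bap and bin, genes of the visceral mesoderm. The cells were thus chosen by their own counts of these genes. Of 17142 barcodes, 160 met the rule, 138 from the female and 22 from the male library. They are called twi/htl cells here.

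Twist is a basic helix-loop-helix transcription factor that specifies the mesoderm, and it switches on tin, Mef2, htl and stumps. Heartless and its adaptor Stumps let mesoderm cells spread under the ectoderm. The mesoderm is then divided into body wall muscle, visceral muscle, heart, fat body and somatic gonad. Each body wall muscle is seeded by a founder cell, to which fusion-competent myoblasts fuse. Twist persists in the precursors of adult muscles, in which Him holds back differentiation by Mef2.

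Both libraries came from 5 to 8 h embryos of the genotype Sxl-GFP, vas-GFP, one from females and the other from males. Cells were sorted for GFP and captured with version 3 of the 10x 3′ chemistry. The vas-GFP reporter marks germ cells, so all somatic cells here are cells that this sort passed or carried along, and their share is not a share of the embryo. Whether the Sxl-GFP reporter led the sort to pass different somatic cells in females and males was not tested. The remaining library, from unsexed embryos of 0 to 8 h and version 2 chemistry, was not analysed here. With 1 library for each sex, differences have no replicate check and were given no test. All intervals describe counting error alone.

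The twi/htl cells made up 1.34% of the 10275 female cells past the depth limits (exact Clopper-Pearson 95% interval 1.13 to 1.58%) and 0.329% of the 6687 male cells (0.206 to 0.498%). The libraries differed in their germ cell content: 1268 female and 4692 male cells carried 3 or more of the germ genes. Among cells with at most 2 of them, the twi/htl share was 1.53% in females (1.29 to 1.81%) and 1.10% in males (0.692 to 1.66%). These intervals overlap. Female twi/htl cells held 1145494 UMIs and male ones 66219. Their medians per cell were 5928.5 and 2649.5, so male values rest on far fewer molecules. Of the barcodes, 17 occurred in both matrices, and no twi/htl cell was among them. Sex-linked transcripts in the twi/htl cells were in the direction of the labels for roX2, an RNA of the male dosage compensation complex, which stood at 29.7 CPM (UMIs of the gene per 1000000 UMIs of the class) in females and 121 CPM in males. The male roX2 level rests on few UMIs, since 3 male UMIs already make 45.3 CPM. For roX1, the partner RNA of roX2, the levels of 810 and 906 CPM did not part beyond counting error. The msl-2 transcript gave no direction, with 18.3 CPM in females and 0 male UMIs, where 0 of 66219 UMIs allows up to 45.3 CPM.

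The values that chose the cells are given as a description. Summed twi and htl UMIs had a median of 4 in both libraries and reached 21 in females and 6 in males. No htl UMI was present in 37 of the 138 female and 8 of the 22 male cells, so these qualified on twi alone. A sum of 3, the lowest allowed, was held by 43 female and 10 male cells, while 61 and 21 cells had a sum of 2 and lay just outside. Cells just outside were about as deep as those just inside, with a median of 5912 against 6115 UMIs in females and 2757 against 2318 in males. Mef2, which the rule did not use, was seen in 54.1% of female cells just outside and 48.8% just inside, and in 61.9% and 30% of the male ones. Many more cells passed the twi and htl limits but were turned away for lmd, sns and sing: 1249 female and 36 male cells. Within the retained cells such UMIs were common: 49 female cells had 1 and 58 had 2, and 31 had none. In males these numbers were 10, 5 and 7.

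One group of cells stood apart before any comparison was made. When the 160 cells were clustered, 24 of them, all female, formed a subcluster whose summed counts were rich in markers of neuroblasts, neurons, glia and epidermis. Those markers summed to 2926 CPM there, against 308 to 802 CPM in the other 7 subclusters. Single cells of the 24 ran from 0 CPM, in cells of 1932 and 1633 UMIs, to 7048 CPM. Mef2 UMIs were seen in 13 of the 24. Values given without the 24 thus also leave out cells with few of those markers. The 24 cells had a median of 13509.5 UMIs, against 5808 in the remaining 114 female cells, and supplied 34.9% of the female UMIs. Of these 24 cells, 10 were among the cells with the highest doublet scores in their library, against 1 of the other 136 twi/htl cells. At a finer clustering resolution of 1.5 the group did not stay whole: 18 of the 24 formed a subcluster and 6 fell into one of 13 cells. Their part in the results below was not tested, and the female values that they moved most are given with and without them.

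**Figure D1:**
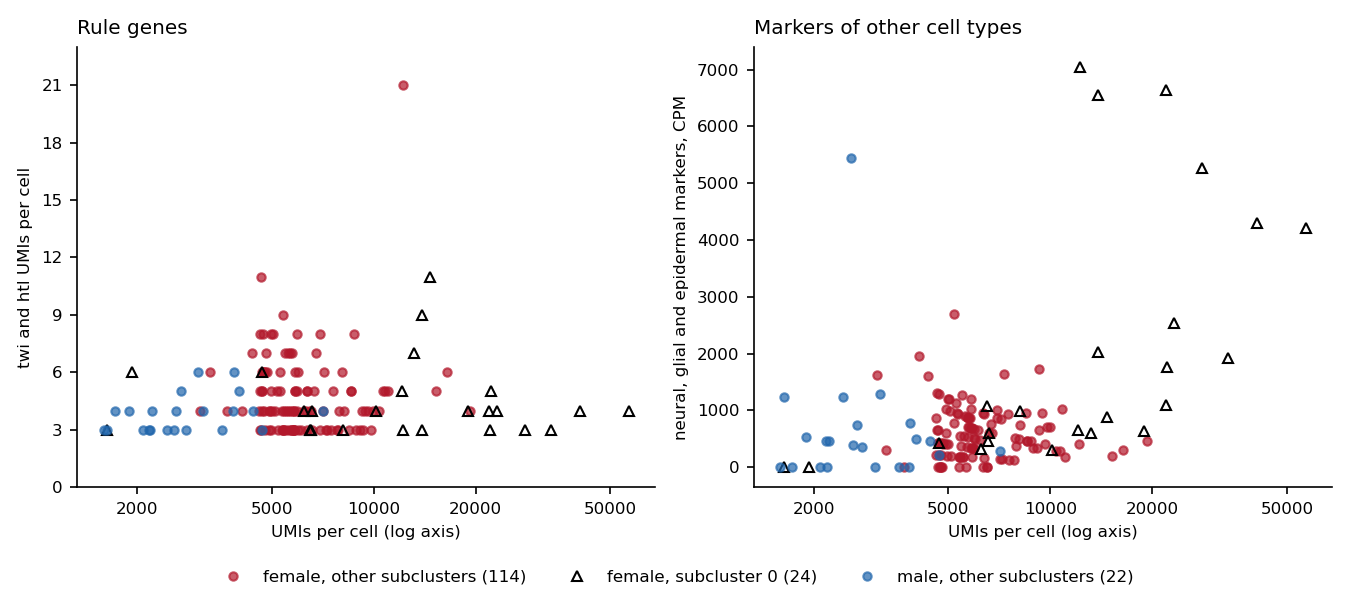
Each point is 1 of the 160 twi/htl cells, with its UMIs on a log axis. The left panel plots summed twi and htl UMIs, which the rule sets at 3 or more, and the right panel the summed CPM of neuroblast, neuron, glia and epidermis markers; open triangles are the 24 cells of the subcluster that stood apart, whose median depth was 13509.5 UMIs.

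Membership also depended on the count table used. The submitters' dense count tables hold the same libraries with more UMIs per cell. There the median of the same twi/htl cells was 7019 UMIs in females, up from 5928.5, and 6633 in males, up from 2649.5. Applied there, the rule kept 100 of the 138 female and 8 of the 22 male cells. It also took in 30 female and 10 male cells that had not met it in the matrices, besides cells whose barcodes only the dense tables hold. All 38 lost female cells and 13 of the 14 lost male cells went past the limit on lmd, sns and sing. In the dense tables, then, most of the male cells also held lmd, sns and sing UMIs above the limit. Which table is the authors' final quantification is not stated in the sources used here, and the cause of the change was not tested.

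The defining markers that the rule did not use were Mef2 and stumps. Mef2, a MADS-box factor that drives muscle genes, stood at 182 CPM in females and 272 CPM in males (209 and 18 UMIs). At least 1 Mef2 UMI was seen in 83 of 138 female and 10 of 22 male cells. The comparison of interest was with the rest of the soma, meaning cells with none of the 7 germ genes, outside the twi/htl set and without the lmd/sns/sing or bap/bin cells (3827 female and 1005 male cells). Mef2 was 5.55-fold higher in twi/htl cells than there in females (exact conditional interval 4.76 to 6.44) and 5.22-fold higher in males (3.03 to 8.46). Levels in both libraries were nonetheless below those of the lmd/sns/sing cells, at 523 and 548 CPM. The transcript of stumps was low everywhere: 41.0 CPM in female twi/htl cells against 22.0 CPM in the rest of the soma, a ratio of 1.87 (1.36 to 2.51), and 2 UMIs in male cells. UMIs of stumps were seen in 30 of 138 female cells. Mef2 was thus higher than in the rest of the soma in both libraries, but this holds against a comparator from which the other Mef2-rich cells were taken out.

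A share of cells with a UMI depends on depth, so cells were also thinned to 3000 UMIs each, which left out 2 female and 13 male twi/htl cells. A Mef2 UMI was then present in 39.7% of female twi/htl cells (31.4 to 48.4%), against 7.79% in the rest of the soma. In cells with 3 or more germ genes the share was 7.03%, and their median depth before thinning was 18971.5 UMIs. Whether the Mef2 UMIs of those cells are background was not tested. Unthinned, the female share was 60.1%. For Him the shares after thinning were 85.3% in female twi/htl cells, 15.2% in the rest of the soma and 4.66% in the germ gene cells. Male shares came from 9 cells only, 8 of which held Him.

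**Figure D2:**
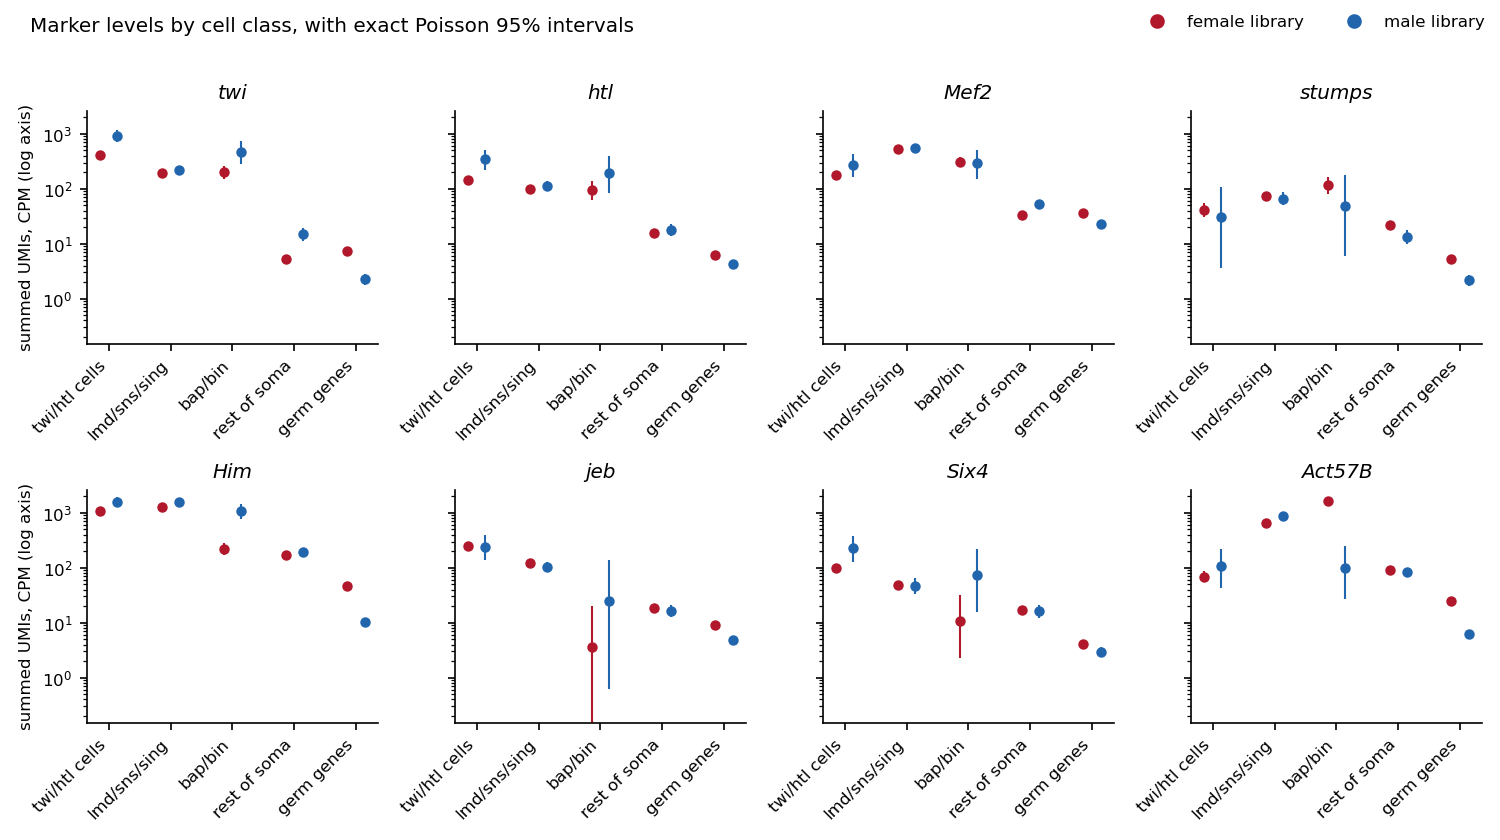
Summed CPM (log axis) of 8 genes in 5 cell classes of the female (red) and male (blue) libraries, with exact Poisson 95% intervals. By the rule twi and htl are high in twi/htl cells; Mef2 reached 182 and 272 CPM there against 32.9 and 52.1 CPM in the rest of the soma, and Act57B was lower than in lmd/sns/sing cells.

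Against the rest of the soma, 6 of 3690 genes were at least 4-fold higher in twi/htl cells in both libraries (0.163%) and 22 were at least 4-fold lower (0.596%). The 6 were Him, meso18E, Mef2, Act87E, CG14207 and caup. Him, the inhibitor of muscle differentiation, was the most abundant of them, at 1087 CPM in females and 1586 CPM in males against 171 and 195 CPM. Its ratio was 6.34 in females (5.95 to 6.74) and 8.13 in males (6.56 to 9.98), and it was seen in 131 of 138 and 21 of 22 cells. The mesodermal gene meso18E was 5.32-fold higher in females (4.54 to 6.20) and 9.07-fold in males (5.44 to 14.4). Act87E, an actin gene, stood at 375 and 453 CPM against 52.4 and 92.8 CPM.

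The gene caup encodes an Iroquois homeodomain factor that patterns muscles and imaginal tissues. It stood at 237 and 196 CPM against 58.3 and 45.3 CPM, 4.08-fold higher in females (3.58 to 4.63) and 4.33-fold in males (2.26 to 7.60). CG14207 was 5.30-fold higher in females and 4.86-fold in males. Without the 24 cells, the female ratios of all 6 genes were higher, between 5.41 for caup and 9.11 for Act87E. The count of genes called higher was then 7, of which 6 were the same genes, with CG12177 added.

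The next 14 by rank were CG9650, CG12177, bol, gsb, CG32850, CG18446, retn, sls, odd, slp1, Rbfox1, l(1)sc, CG32344 and path. Of these, gooseberry (gsb), a Pax factor of segment polarity, was 2.92-fold higher in females (2.53 to 3.36) and 2.55-fold in males (1.52 to 4.02). In females 35 of 138 cells held its 222 UMIs, and 1 cell held 20.7% of them. The forkhead gene slp1 was 2.19-fold higher in females and 2.49-fold in males. The pair-rule gene odd was 2.68-fold higher in females (2.16 to 3.28), while its 4 male UMIs came from 1 cell. The proneural gene l(1)sc, which also marks the clusters from which muscle progenitors are drawn, was 2.61-fold and 2.10-fold higher. The titin-like gene sls was 2.25-fold higher in females and 3.92-fold in males. The other 9 stood at 2.07 to 3.75-fold in females and 2.31 to 5.04-fold in males. Of the 11 genes listed as segment polarity and striped regulators, 8 passed the filter and 0 were 4-fold higher or lower in both libraries. There 4 were above 0 in both and 2 below, with median log2 ratios of 0.18 in females and 0.42 in males. Of all 3690 genes, 33.1% were above 0 in both libraries and 32.7% below.

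The lowest genes of the same ranking are given next, and the tissues to which they belong were not tested. The epidermal regulator grh stood at 48.9 CPM in female twi/htl cells against 244 CPM in the rest of the soma, and male twi/htl cells had 0 UMIs, at least 2.85-fold lower than 129 CPM when 3 UMIs are taken as the floor. Of the 56 female UMIs of grh, 27 came from 1 cell. Without the 24 cells a single UMI remained, a ratio of 0.00549 (0.000139 to 0.0306). The odorant-binding protein gene Obp99a was at 267 CPM in females, with 52.0% of its UMIs in 1 cell, and at 28.2 CPM without the 24 cells, against 2554 CPM in the rest of the soma. Male twi/htl cells had 1 Obp99a UMI, a ratio of 0.00787 (0.000199 to 0.0438). For abrupt (ab), a BTB zinc finger gene, the female ratio was 0.132, from 60 UMIs, and 0.0135 without the 24 cells, and male cells at 0 UMIs were at least 4.32-fold lower. The remaining lowest genes were CG43332, Npc2g, Nplp2, CG10035 and nw, with female ratios of 0.0916 to 0.187, or 0.0100 to 0.121 without the 24 cells. Counting genes at 0 UMIs at their floor, 13 genes were 4-fold lower (0.352%), against 22 with no floor applied. Without the 24 cells and with no floor, 45 of 3522 genes were 4-fold lower, of which 6 were among those 22. Leaving the count need not mean a smaller fall, since genes under the CPM limit of the ranking in both libraries were not tested. Without the 24 cells grh was such a gene. How many others left for this reason was not counted.

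**Figure D3:**
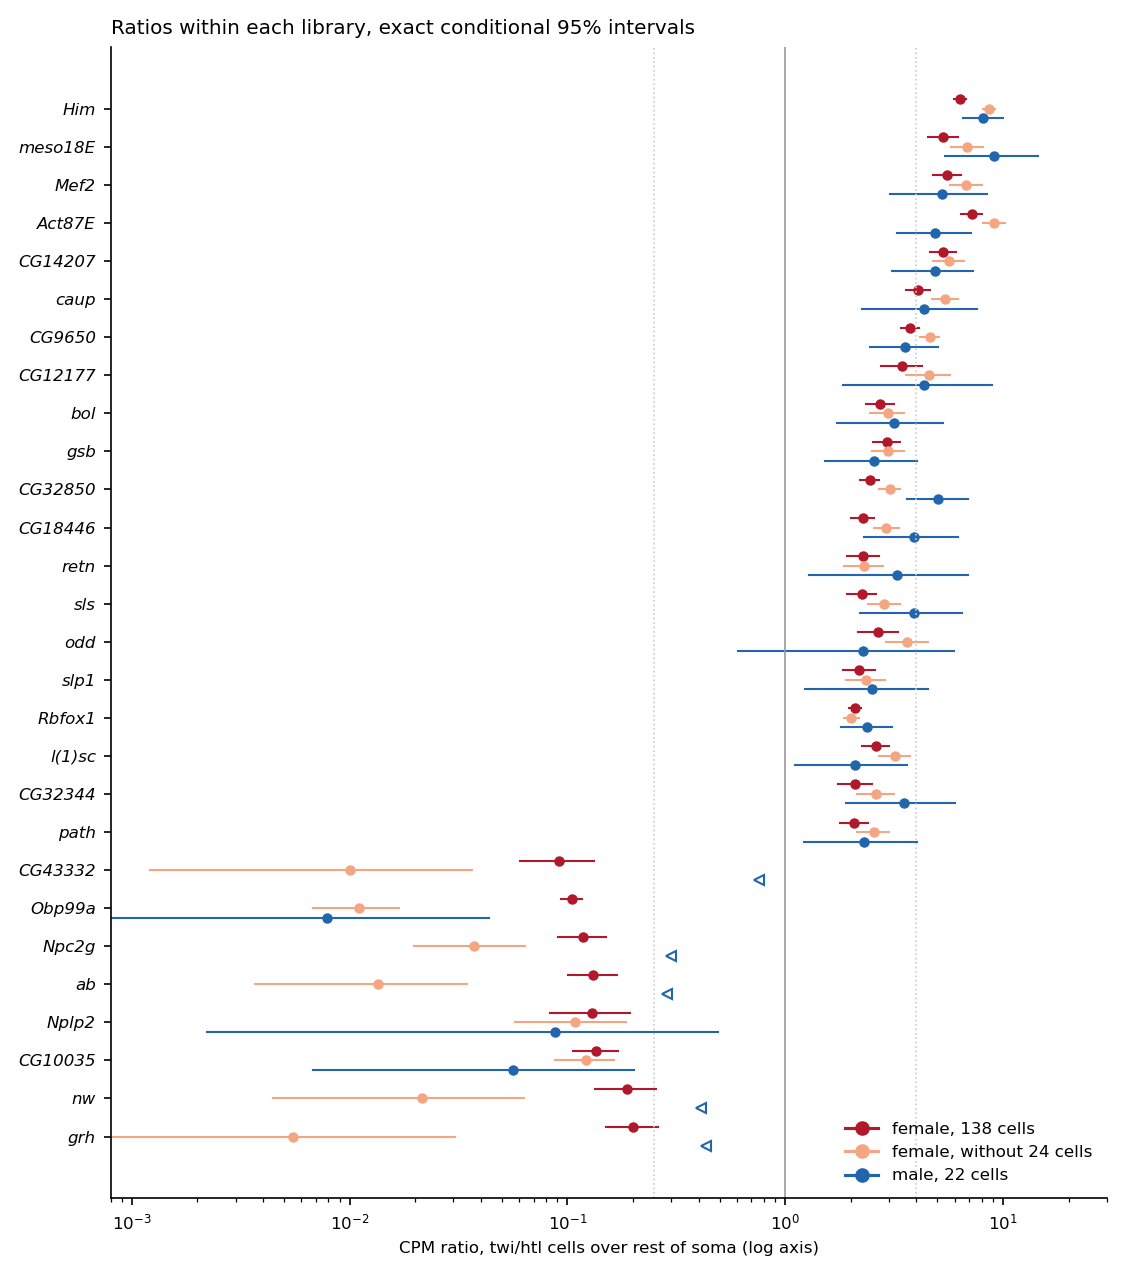
CPM ratios of twi/htl cells over the rest of the soma (log axis) for the 20 highest and 8 lowest genes, with exact conditional 95% intervals; dotted lines mark 4-fold. Dark red is all 138 female cells, light red the 114 left without the subcluster that stood apart, blue the 22 male cells, and open arrowheads the upper bound where there were no UMIs; Him reached 6.34, 8.63 and 8.13.

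Several mesodermal genes were too sparse in the male library for that ranking, which asks for 100 UMIs in each library, and their values are given as a description. The ligand gene jelly belly (jeb) stood at 251 CPM in females and 242 CPM in males (288 and 16 UMIs), against 18.9 and 16.6 CPM in the rest of the soma. Its ratio was 13.3 in females (11.5 to 15.4) and 14.6 in males (7.86 to 25.5). The product of jeb is secreted by somatic mesoderm and activates the receptor Alk in the visceral mesoderm. Alk itself was at 7.86 CPM in female twi/htl cells and 30.2 CPM, from 2 UMIs, in male ones.

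Six4, a homeobox gene needed for several mesodermal derivatives, had ratios of 5.74 (4.65 to 7.04) and 14.1 (7.45 to 25.1). Its UMIs lay in 57 of 138 female and 9 of 22 male cells. The Pax gene Poxm, which acts in ventral and lateral muscles, was at 50.6 and 181 CPM against 5.78 and 4.15 CPM, and 5 of its 12 male UMIs came from 1 cell. The basement membrane gene Ndg, for nidogen, had ratios of 9.74 (8.27 to 11.4) and 9.07 (3.45 to 20.3). Its male value rests on 7 UMIs in 3 cells. The leucine-rich repeat gene ltl was 4.18-fold higher in females (3.44 to 5.05) and 8.74-fold in males (3.81 to 17.7). All 5 genes were above the rest of the soma in both libraries by more than counting error.

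Genes named for the identity of single muscles were thinner. The LIM homeobox gene ap, of the lateral transverse muscles, was at 41.0 CPM in females, with UMIs in 36 cells, and 60.4 CPM in males (4 UMIs), against 7.51 and 5.96 CPM. Collier (kn), which specifies a dorsal acute muscle, was at 107 CPM in females with UMIs in 34 cells and had 0 UMIs in males. The founder homeobox gene slou had 12 female and 3 male UMIs. The founder adhesion gene kirre was at 99.5 and 151 CPM against 27.1 and 16.1 CPM, and a single female cell held 22 of its 114 UMIs. Of the 18 genes in the founder list, 6 passed the filter against the rest of the soma and none was 4-fold higher in both libraries. There 1 was above (0 without the 24 cells) and 2 below in both, and the medians were 0.22 in females and -0.28 in males on the log2 ratio scale, against 0.01 and -0.00 for all 3690 genes. Of those 3690, 33.1% were above 0 in both libraries and 32.7% below.

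Of the 15 genes for mesoderm specification and Twist targets, 10 passed the filter, and Mef2 and Him were the only members 4-fold higher in both libraries. In all 5 were above 0 in both (4 without the 24 cells) and 2 below, with medians of 0.39 and 0.08. Over all genes tested, 33.1% were above 0 in both libraries and 32.7% below. Tinman (tin), the early mesoderm and heart homeobox gene, missed the filter, with 35.8 CPM in females and 166 CPM in males (11 UMIs in 5 cells) against 12.8 and 22.0 CPM. Snail (sna), the partner of Twist in gastrulation, stood at 96.0 CPM in female twi/htl cells and 112 CPM in the rest of the soma, a ratio of 0.856 (0.702 to 1.03) that was 0.454 without the 24 cells. The N-cadherin gene CadN was 2.49-fold higher in females (2.14 to 2.88), and its male ratio of 1.73 (0.784 to 3.33) was within counting error. For zfh1, a zinc finger gene of early mesoderm and muscle precursors, the female ratio of 1.36 became 0.784 without the 24 cells, and 1 cell held 104 of its 526 UMIs.

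In the FGF and Ras-MAPK list, 14 of 15 genes were among the symbols in the files and 9 passed the filter. None was 4-fold different in both libraries, 4 were above 0 in both and 2 below, and the medians were 0.06 and 0.31. The shares over all 3690 genes were 33.1% above 0 in both libraries and 32.7% below. The ETS repressor gene aop was the most abundant of them, 1.59-fold higher in females (from 1175 UMIs) and 2.28-fold in males (1.79 to 2.87). Of the FGF ligand genes of heartless, ths had 4 female UMIs, or 3.49 CPM against 19.1 CPM in the rest of the female soma. The other, pyr, had 26 female UMIs, or 22.7 CPM against 39.0 CPM, and 1 UMI was left without the 24 cells. Neither ligand had a male UMI. The tracheal FGF receptor gene btl had 2 female UMIs and none in males.

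The comparison with all other somatic cells took in 6774 female and 1217 male cells without the 7 germ genes, the lmd/sns/sing and bap/bin cells included. Of 3984 genes, 0 were at least 4-fold higher in both libraries (0%) and 8 at least 4-fold lower (0.201%). Over all genes tested, 30.6% were above 0 in both libraries and 29.6% below. Without the 24 cells, jeb and Six4 passed 4-fold in both libraries. With all cells jeb was 3.60-fold higher in females (3.19 to 4.06) and 7.56-fold in males (4.21 to 12.7). Six4 was 3.15-fold (2.58 to 3.81) and 10.4-fold (5.59 to 17.9) higher. The other genes leading this ranking were gsb, Ndg, caup, CG12177, stai, slp1, retn, eya, l(1)sc, phyl, slp2, Ilp4, ltl, odd, Nse1, CG18446, sofe and Toll-6, at 1.59 to 3.27-fold in females.

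Of those genes stai, a stathmin gene, rested on few cells. Its female ratio was 2.40, and 0.335 (0.0405 to 1.22) without the 24 cells, and 7 of its 9 male UMIs came from 1 cell. Eya, a partner of Six4, had 59.4 and 60.4 CPM in the female and male cells, with 4 male UMIs in all. The insulin-like peptide gene Ilp4 was at 677 and 544 CPM against 395 and 202 CPM. Mef2 changed sides in this comparison: in females it was 0.703 of the level in all other somatic cells (0.610 to 0.806), and in males 1.96-fold higher (1.15 to 3.12).

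The 8 genes lowest against all other somatic cells were CG14687, CG43332, Obp99a, ab, Npc2g, Nplp2, CG10035 and bru3. For CG14687, 25 female UMIs gave 21.8 CPM against 250 CPM, a ratio of 0.0871 (0.0564 to 0.129). The lmd/sns/sing cells within that comparator held 510 CPM. Against the rest of the female soma, at 17.5 CPM, the ratio was 1.25 (0.802 to 1.86). The count of genes 4-fold lower was 5 (0.126%) with genes at 0 UMIs at their floor.

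The comparison with fusion-competent myoblasts used the 3691 female and 225 male cells with 3 or more lmd, sns and sing UMIs. The rule itself makes those genes low in twi/htl cells, so only other genes are counted. Of 1224 genes, 1 was at least 2-fold higher in twi/htl cells in both libraries (0.0817%) and 28 were at least 2-fold lower (2.29%), while 31.8% lay above 0 in both libraries and 32.5% below. The 1 higher gene was jeb, at 251 against 124 CPM in females, a ratio of 2.03 (1.80 to 2.29), and at 242 against 105 CPM in males, a ratio of 2.31 (1.27 to 3.96). It stayed above 2-fold without the 24 cells, at 2.72 in females.

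Next were Cam, Act42A, phyl, dUTPase and Ilp4, at 1.45 to 1.67-fold in females. Phyllopod (phyl), an adaptor that directs protein breakdown in neural precursors, was 1.62-fold higher in females (1.42 to 1.83) and 3.94-fold in males (2.39 to 6.29). The cytoplasmic actin gene Act42A turned to 0.560 (0.467 to 0.666) in females without the 24 cells. Him was at 1265 and 1580 CPM in lmd/sns/sing cells. Its female ratio of 0.859 (0.811 to 0.909) was below equal levels by more than counting error, but changed sides to 1.17 without the 24 cells.

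Genes of muscle building were lower in twi/htl cells than in the lmd/sns/sing cells. The lowest by rank were CG14687, Act57B, bru3, CG42806, hbs and blow. The muscle actin gene Act57B stood at 69.0 CPM in females and 106 CPM in males, against 666 and 892 CPM. Its ratios were 0.103 (0.0819 to 0.129) and 0.118 (0.0475 to 0.245). The Bruno family RNA-binding gene bru3 had ratios of 0.135 (0.0924 to 0.191; 0.0713 without the 24 cells) and, from 1 male UMI, 0.0678 (0.00171 to 0.382). Hibris (hbs) and blown fuse (blow), both used in myoblast fusion, had female ratios of 0.209 (0.155 to 0.275) and 0.0945 (0.0488 to 0.165). Male twi/htl cells had no CG14687 UMI, at least 13.6-fold lower than the 617 CPM of male lmd/sns/sing cells.

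Of the muscle structure list, 6 of 15 genes passed this filter, with medians of -0.83 and -1.22 against 0.00 and -0.01 for all genes. There 2 were 2-fold lower in both libraries and 5 below 0 in both, or 1 and 6 without the 24 cells. In the male library 9 of the 15 genes had no UMI in twi/htl cells. Act87E was at 375 and 453 CPM against 938 and 1144 CPM, and sls at 160 and 242 CPM against 497 and 454 CPM. Mef2 itself was 0.349 of the lmd/sns/sing level in females (0.303 to 0.400) and 0.496 in males (0.292 to 0.793). The sarcomere genes proper were near the floor: Mhc, up and Mlp60A, for myosin heavy chain, troponin T and a muscle LIM protein, had 0 UMIs in both libraries.

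**Figure D4:**
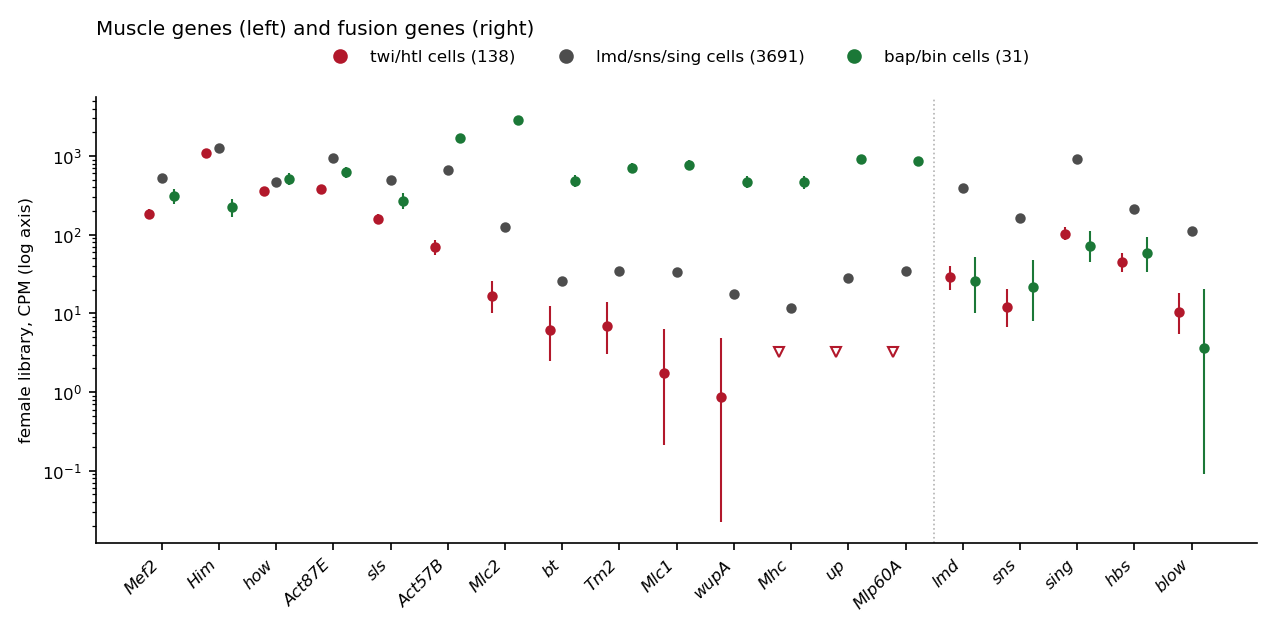
Female CPM (log axis) of muscle genes (left of the dotted line) and fusion genes (right) in twi/htl, lmd/sns/sing and bap/bin cells, with exact Poisson 95% intervals; open triangles mark the upper limit where there were no UMIs. Mlc2 stood at 16.6 CPM in twi/htl cells and 2894 CPM in bap/bin cells; lmd, sns and sing are rule genes.

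Cells with bap or bin were few, 31 female and 11 male ones, and 163 genes passed the filter. Of these 2 were at least 2-fold higher in twi/htl cells in both libraries (1.23%) and 0 lower (0%). In both libraries 41.7% were above 0 and 7.36% below. The 2 were E(spl)malpha-BFM, a Notch target, and Nop60B, a nucleolar enzyme gene. E(spl)malpha-BFM stood at 965 and 1555 CPM against 338 and 371 CPM, with ratios of 2.85 (2.31 to 3.56) and 4.19 (2.43 to 7.76). The Notch ligand gene Dl was 2.65-fold higher in females (2.22 to 3.19) and 1.81-fold in males (1.15 to 2.94). E(spl)m8-HLH was 1.87-fold and 2.60-fold higher, and Ama and Nlp were among the 6 highest too. The 6 lowest were chic, Act5C, fax, 14-3-3zeta, 14-3-3epsilon and SkpA, all widely used genes, at 0.575 to 0.890 in females. Act5C went from 0.746 to 0.442 there once the 24 cells were left out.

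Sarcomere genes parted these classes widely in females, though they missed the filter on male UMIs. The myosin light chain gene Mlc2 was at 16.6 CPM in twi/htl cells and 2894 CPM in bap/bin cells, and Act57B at 69.0 and 1669 CPM. The male bap/bin cells had no Mlc2 UMI, so this did not recur there. Of the visceral genes, Hand and Fas3 were low in twi/htl cells. Hand had 0 UMIs in either library. Fas3 stood at 260 CPM in females against 1269 CPM in bap/bin cells, a ratio of 0.205 that was 0.0549 without the 24 cells. Of the 7 genes on the visceral list, bap and bin are rule genes and 0 passed this filter. Against lmd/sns/sing cells 2 passed. There jeb was 2-fold higher in both libraries and the other gene 2-fold lower, calls made for 0.0817% and 2.29% of all genes. HLH54F, of the caudal visceral mesoderm, had 3 female UMIs and none in males. Of the 7 gonadal mesoderm genes, Six4 and eya were described above, and tj had no UMI.

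Notch signalling genes were detected throughout. All 20 genes of the Notch and E(spl) list passed the filter against the rest of the soma, with 14 above 0 in both libraries and 4 below. Of all 3690 genes tested there, 33.1% were above 0 in both libraries and 32.7% below. The log2 medians of the list were 0.38 in females and 0.48 in males. E(spl)m7-HLH was the most abundant, at 1815 and 2613 CPM, with ratios of 1.59 (1.52 to 1.66) and 1.85 (1.58 to 2.15). E(spl)malpha-BFM was 1.51-fold higher in females (1.42 to 1.60) and 2.80-fold in males (2.27 to 3.41). None of the 20 genes reached 4-fold. Against lmd/sns/sing cells the medians were -0.02 and 0.26, with 7 of 16 genes above 0 in both libraries (10 without the 24 cells) and 3 below. Of all 1224 genes tested there, 31.8% were above 0 in both libraries and 32.5% below.

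Most female UMIs of neuron, glia and endoderm markers lay in the 24 cells that stood apart. Neuron markers summed to 438 CPM in females and 166 CPM in males, against 880 and 896 CPM in the rest of the soma. The 24 cells held 371 of the 502 female neuron UMIs, and without them the female sum was 176 CPM. Glia markers summed to 237 and 30.2 CPM against 285 and 270 CPM, with 247 of 271 female UMIs in the 24 cells and a sum of 32.2 CPM without them. Endoderm markers had 52 female UMIs, 51 of them in the 24 cells, and no male UMI. The neuronal gene elav had a female ratio of 0.468 (0.423 to 0.517), which was 0.172 (0.139 to 0.211) without the 24 cells and 0.184 (0.0842 to 0.350) in males. Elav is one of the markers by which the 24 cells stood apart, so its fall in females without them is no separate check. The germ genes of the rule summed to 28.8 CPM in females and 151 CPM in males, the latter being 10 UMIs in 2 cells.

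Hox genes, which set position along the body axis, varied from cell to cell. Among the 8 of them from lab to Abd-B, 64 of 138 female cells showed UMIs for 1 gene, 47 for more than 1 and 27 for none. In males the numbers were 14, 4 and 4 of 22. Ubx, of the posterior thorax and anterior abdomen, led in 45 female and 8 male cells. Antp, of the thorax, led in 30 and 5 cells, and Abd-B, of the posterior abdomen, in 18 and 3. Proboscipedia (pb), a head gene, had 115 UMIs in 10 female cells, 27 of them in 1 cell. The posterior gene abd-A was seen in 29 female cells but led in 1, and 24 of those 29 also held Ubx. The head and prothorax genes lab, Dfd and Scr led in 0, 3 and 3 female cells and had no male UMI. Genes of the thorax and abdomen thus led far more of the twi/htl cells than those of the head, in both libraries.

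The 8 subclusters of the 160 cells are described by their leading genes and are given no cell type name, since the genes that define them are the same as those listed. A cluster of 23 cells was led by Antp at 824 CPM, with sls, odd and caup among its 10 leading genes. Another of 21 was led by pb, Notum and kn, with Poxm and gsb among its 10. Jeb led another of 21 cells at 948 CPM, with slp2, Ubx and caup. In a subcluster of 20 cells Pdp1, kirre and Optix led, and Mef2 was at 545 CPM, its highest value. A subcluster of 18 cells was led by gsb, l(1)sc and E(spl)mdelta-HLH. In one of 17 cells dnk and CG2915 led, with Six4 at 268 CPM. The last, of 16 cells, was led by kek1 at 538 CPM, with srp, a GATA factor of fat body and blood, at 513 CPM and Abd-B at 748 CPM. There Him was highest, at 2547 CPM.

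Male cells fell into 7 of the 8 subclusters, with 1 to 5 in each. Levels of twi ran from 411 to 880 CPM over these 7 and were 183 CPM in the 24 cells, whose leading genes were CG12011, cpo and CG10591. Of the 597 female UMIs of CG12011, 579 came from 1 cell. Him was at 353 CPM, Mef2 at 108 CPM and elav at 753 CPM in the 24 cells.

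**Figure D5:**
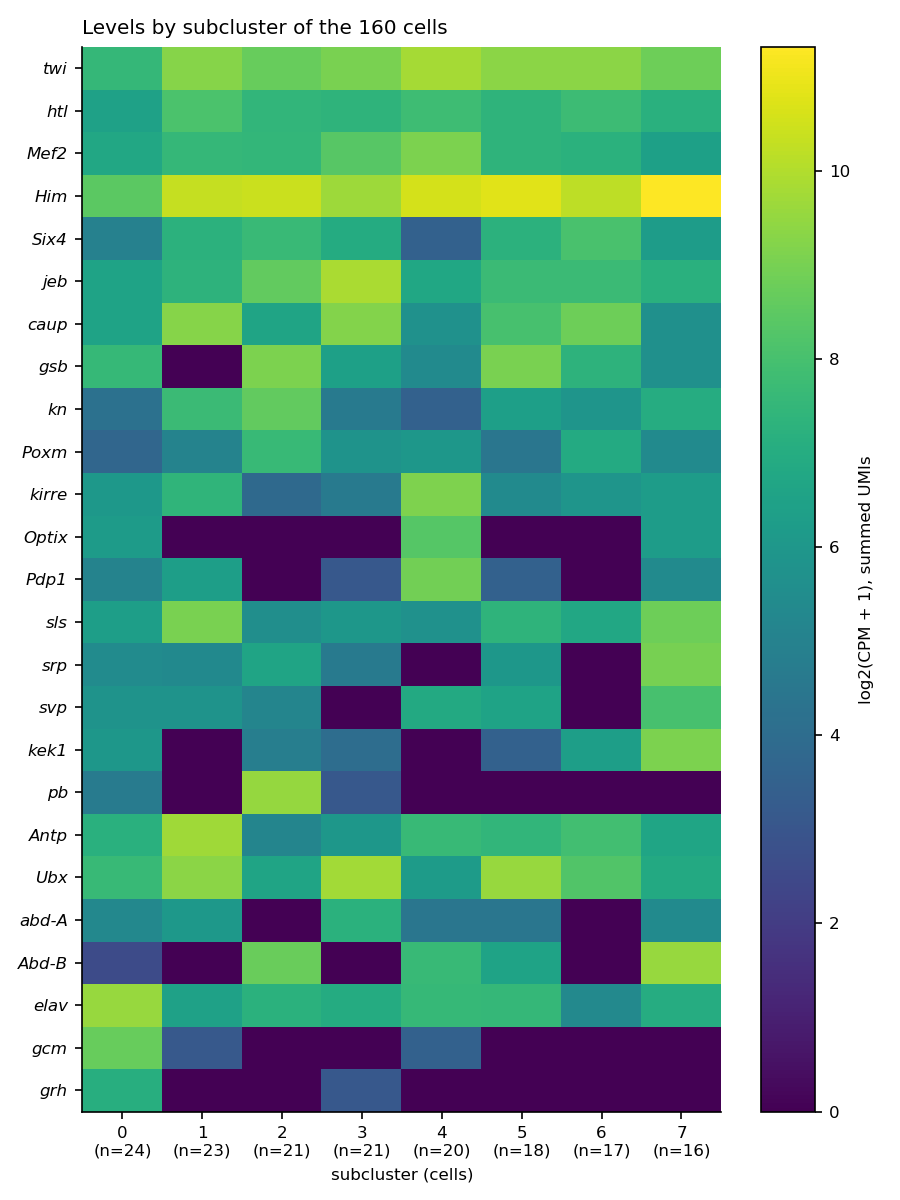
Levels as log2(CPM + 1) of summed UMIs for 25 genes in the 8 subclusters of the 160 cells, with cell numbers under each. Antp, pb, Ubx and Abd-B peaked in different subclusters, and elav, gcm and grh were highest in the 24 cells of subcluster 0.

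Female and male twi/htl cells were set side by side to see which transcripts differ between sexes. Of 1570 genes, 145 were at least 2-fold higher in female cells (9.24%) and 18 in male cells (1.15%). No floor was applied to genes with 0 UMIs in these counts. The depths were unequal, as 3 UMIs make 45.3 CPM in male and 2.62 CPM in female cells. Without the 24 cells these counts were 42 and 5. The 5 highest in females were CG12011, Fas2, cpo, Argk and chinmo, each with 0 male UMIs, which allows up to 45.3 CPM. They had 521, 228, 215, 207 and 193 CPM in females. All 5 lay mainly in the 24 cells, which held 584 of 597 UMIs of CG12011, 247 of 261 of Fas2, 244 of 246 of cpo, 232 of 237 of Argk and 219 of 221 of chinmo. Without those cells their female levels were 2.68 to 18.8 CPM, below what 0 male UMIs allows.

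The 5 highest in males were HP5, asf1, Six4, CycE and CG2493. Six4 stood at 99.5 CPM in females against 227 CPM in males, which is 0.439 of the male level (0.255 to 0.811). Six4 was at 137 CPM in females without the 24 cells, a ratio of 0.604 (0.349 to 1.12) that is short of 2-fold and whose interval includes equal levels. The S phase cyclin gene CycE was at 86.4 and 196 CPM, a ratio of 0.440 (0.246 to 0.856). For HP5 and asf1 these ratios were 0.421 and 0.429. CG2493 too was short of 2-fold without the 24 cells, and HP5, asf1 and CycE had too few UMIs to be counted. In the rest of the soma the ratio of Six4 was 1.08 and that of CycE 0.944. Sxl, the sex-determining gene, was at 430 and 302 CPM, a ratio of 1.42 whose interval of 0.913 to 2.35 includes equal levels. Sex cannot be told apart here from depth, cell number or what the sort passed.

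Genes of the X were set against those of the autosomes, since males carry a single X. In twi/htl cells the median log2 ratio of female over male was 0.13 for 275 genes on the X and 0.02 for 1259 on the autosomes, which differ by 0.11. For the same genes the difference was 0.18 in the rest of the soma and 0.11 in the lmd/sns/sing cells. Across the settings tried it ran from 0.05 to 0.23 in twi/htl cells.

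The genes that carry these results lie on several chromosome arms, by the Ensembl annotation of BDGP6. The gene twi (FBgn0003900) spans 22985374 to 23048325 on the plus strand of 2R, and htl (FBgn0010389) spans 18045216 to 18052984 on the minus strand of 3R. Mef2 (FBgn0011656) lies at 9913496 to 9958858 on the minus strand of 2R, and Him (FBgn0030900) at 18209427 to 18210741 on the plus strand of X. On 2R, jeb (FBgn0086677) spans 12085194 to 12119340, minus strand. Six4 (FBgn0027364) lies on 3L at 20788886 to 20792777, minus strand. These are whole gene spans, and reads of the 3′ chemistry come mostly from transcript ends. Among the genes given with values, roX1, twi, Mef2, stumps, Six4, Poxm, Ndg, kirre, sls, Act57B, Act87E, meso18E, bru3, blow, stai, retn, elav, grh, zfh1, aop, CycE, CG12011, CG2493, CG32850, CG18446, CG9650, CG42806, CadN, Cam, Ama, Nlp, Nop60B, Ilp4, Fas2, Fas3, cpo, chinmo, Sxl, msl-2, bol, Rbfox1, l(1)sc, path, dUTPase, ab, ap, pb, lab, Scr, Antp, Ubx, Abd-B, srp, gcm, ths and btl overlap another annotated gene, so their counts are uncertain. Some partners lie on the same strand, as for twi, stai and CG12011, and those reads cannot be told apart even where counting uses strand.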

How the data were processed

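Whole-number UMI counts per gene and cell were used as the authors deposited them in a sparse matrix for each sexed library, made with Cell Ranger for BDGP6 per the submitters' processing notes. Whether counting used strand is not given in the sources used here. Dense count tables of the same libraries, also deposited, served as an alternative, and the unsexed library was not used. The total was 109431813 UMIs in the female and 47345241 in the male matrix. Gene positions and overlaps came from Ensembl release 115, in which 17626 of 17753 gene IDs were found. CPM is a gene's summed count over the cells of a class, scaled by the class total. A gene entered a ranking with at least 20 CPM in twi/htl cells of 1 library and 100 UMIs over both classes in each library. Between sexes the 100 UMIs were summed over female and male twi/htl cells. Log2 ratios used a pseudocount of 1 CPM. A gene was counted at 4-fold against somatic cells and at 2-fold against lmd/sns/sing cells, bap/bin cells and between sexes. Named were the 20 highest and 8 lowest genes against somatic cells and the 6 highest and lowest against each mesodermal class, ranked by the weaker of both libraries. For each sex 5 genes were named, ranked by the female over male ratio. Genes of 30 lists were named too. The members and lists were chosen with earlier results of these data known. Fold bounds for genes with 0 UMIs took 3 UMIs as the floor, per library. Intervals are exact (Poisson, Clopper-Pearson or conditional binomial, 95%).

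Cells were clustered with scanpy 1.11.5 and igraph 0.11.9 (2000 variable genes, 20 components, 15 neighbours, resolution 1). Doublets were kept in the main values. Scrublet's own threshold marked 3.79% of female and 0.0748% of male cells, so as an alternative the highest scores were removed at 0.8% per 1000 cells. Ratios and counts were tried on simulated Poisson counts of whole classes with known changes. Those counts had no variation between cells, so they cannot show how the intervals do where 1 cell holds many UMIs. Other alternatives changed the rule, comparator, filter, fold, scaling, thinning and source table.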

Additional observations from a re-analysis of the deposited data

Results flagged for a closer look

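Several genes lay above all other somatic cells in one library and below them in the other, beyond counting error in each when all twi/htl cells were taken. The difference between the libraries itself was not tested. Act87E had a ratio of 0.796 in females and 1.60 in males, Mef2 0.703 and 1.96, kirre 0.756 and 3.52, sls 0.603 and 1.87, and tin 0.629 and 4.10. That comparator includes lmd/sns/sing cells, and against the rest of the soma without them all 5 genes had ratios above 1 in both libraries. Without the 24 female cells that stood apart, the female ratios were 1.01 for Act87E (0.909 to 1.12) and 0.896 for kirre (0.718 to 1.11), whose intervals include 1, and 0.858 for Mef2, 0.764 for sls and 0.589 for tin. The transcripts chinmo, cpo and gcm went the other way, at 2.39, 1.99 and 1.41 in females, while males had 0 UMIs of chinmo and cpo and 1 of gcm, a ratio of 0.0917. Against the rest of the soma chinmo was at 1.49 and cpo at 1.503 in females, again with 0 male UMIs. Chinmo, cpo and gcm, without the 24 cells, had female ratios of 0.0332, 0.0248 and 0.0131 against all other somatic cells, on the same side as males. These genes are among the leading genes of the 24 cells, so this shift is no separate check. Most female UMIs of these genes lay in the 24 cells: 219 of 221 for chinmo, 244 of 246 for cpo and 164 of 165 for gcm. Against the rest of the soma, without the lmd/sns/sing and bap/bin cells, the 14-3-3epsilon ratio was 1.04 in females and 0.805 in males.

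Barcodes found only in the dense tables, outside the values above, held 16 female cells that met the rule among 573 past the depth limits (2.79%, 1.60 to 4.50%) and 16 male cells among 416 (3.85%, 2.21 to 6.17%).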

How the results depend on the processing

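No paired analysis was possible because each group has 1 library. Of the counts and shares recomputed, 65 values stayed near the main one and 46 moved; of single genes, 1823 stayed, 432 moved and 2 turned. CG14687 (log2 0.31) and blow (1.15) turned in females once lmd/sns/sing and bap/bin cells left the comparator, which removes cells in which both were higher. That comparator gave 6 genes higher and 22 lower. With twi and htl at 5 or more and 2 of twi, 54 female and 4 male cells remained, with 1 gene higher and 13 lower than other somatic cells and 94 female-higher genes; asking for both genes left 14 male cells. Dense tables gave 34 male cells, 2 genes lower, 7 male-higher and an X to autosome difference of 0.23. Against other somatic cells, 1 gene was higher with up to 2 germ genes allowed; 1 higher and 14 lower with 0 twi and htl UMIs in the comparator, and likewise with mean per-cell CPM; 4 lower at 50 CPM, 18 lower at 5 CPM; 10 higher and 71 lower at 2-fold; 15 lower after thinning. Against lmd/sns/sing cells, 4-fold left 0 higher and 7 lower, thinning 0 and 15. Against bap/bin cells, 4-fold and thinning left 0 higher, doublet removal gave 4. Between sexes, 1.5-fold gave 299 and 144 genes, thinning 54 and 4, doublet removal 10 and median-ratio scaling 9 male-higher. Without the 24 cells, an alternative chosen after seeing the data, 2 genes were higher and 27 lower than other somatic cells, 1 lower than bap/bin cells, and 42 and 5 differed between sexes; Him was in 91.2% of thinned female cells. Unthinned shares in females were 60.1% for Mef2, 94.9% for Him, 41.3% for Six4 and 53.6% for jeb. Resolution 0.5 gave 4 subclusters, with the 24 cells whole; at 1.5 they split into 18 and 6. The causes of the other moves were not tested. The 66219 male UMIs limit male values: 0 UMIs allows 45.3 CPM.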

Other observations

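Cell cycle genes lay on both sides in twi/htl cells. Of 14, 13 passed the filter against the rest of the soma, with 4 above and 7 below 0 in both libraries (6 without the 24 female cells) and medians of -0.26 and -0.22 on the log2 ratio scale. Over all 3690 genes tested there, 33.1% were above 0 in both libraries and 32.7% below, with medians of 0.007 in females and -0.004 in males. The cyclin-dependent kinase inhibitor gene dap had a ratio of 0.625 in females (0.300 without the 24 cells) and 0.496 in males, and the mitotic phosphatase gene stg 0.762 and 0.763, where the male interval of 0.426 to 1.26 includes equal levels.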
